A study of Mus musculus with 2 samples.

Results

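Transcripts of 10 membrane proteins, which carry leucine or other neutral amino acids across the cell surface or hold such carriers there, were followed in nuclei of mouse entorhinal cortex. The set, 10 of the 31053 genes in the count tables, was chosen by symbol: *Slc3a2*, *Slc7a5*, *Slc7a8*, *Slc7a10*, *Slc7a11*, *Slc38a1*, *Slc38a2*, *Slc38a3*, *Slc1a4* and *Slc43a2*, and each symbol was found on 1 row. Single-nucleus RNA-seq gave 2 libraries, and each pooled the entorhinal cortex of 5 APP/PS1 mice, all males and 18 months old. APP/PS1 mice carry transgenes that make them deposit amyloid in the brain, and they carry them in both libraries, so neither library is a non-transgenic control. In the OLE library the mice had received OLE (N-oleoyl-leucine, C18:1-Leu in the labels, a lipid in which oleic acid is joined to leucine) at 25 mg/kg/day, and in the vehicle library DMSO, both by way of alkalinised drinking water, starting at 15 months and ending at 18. The comparison asks how treatment with OLE changed expression in each cell type of the cortex. Since each condition has 1 library and hence no replicate, differences were not tested, and the intervals, all at 95%, cover counting error only.

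In the vehicle library 6745 nuclei held 70845739 unique molecular identifiers (UMIs, each marking 1 captured molecule). There were 6173 nuclei with 69485537 UMIs after OLE. The median nucleus had 3989 UMIs in the vehicle library and 6392 in the OLE library, and 14 barcodes occurred in both libraries. After removal of likely doublets, 12227 nuclei were grouped without use of the 10 transporters and named by marker genes, with "-like" to say so. Of these, 6975 nuclei fell into 9 named classes: glutamatergic-like (3891), oligodendrocyte-like (1113), GABAergic-like (675), microglia-like (611), astrocyte-like (256), oligodendrocyte precursor (OPC)-like (185), vascular leptomeningeal-like (167, the fibroblast-like cells of the brain's coverings and large vessels), endothelial-like (50) and mural-like (27). The other 5252 nuclei stayed unnamed, in 1 cluster set aside for its low UMI content and 1 whose leading genes went against the class its markers pointed to. Endothelial-like nuclei (15 in the vehicle and 35 in the OLE library) and mural-like nuclei (11 and 16) were too few for a comparison of the libraries, which was made in the other 7 classes.

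Amino acids carry charges and cross membranes mostly through carriers. *Slc3a2* encodes the heavy chain 4F2hc (CD98hc), a single-span glycoprotein that transports nothing by itself but brings its partners to the cell surface and holds them there through a disulfide bond. Its partners, the light chains, set the substrate: LAT1 (*Slc7a5*) and LAT2 (*Slc7a8*) exchange leucine and other large neutral amino acids, Asc-1 (*Slc7a10*) exchanges small ones including glycine and D-serine, and xCT (*Slc7a11*) takes up cystine against glutamate. Sodium-coupled carriers of the SLC38 family, SNAT1, SNAT2 and SNAT3 (*Slc38a1*, *Slc38a2*, *Slc38a3*), move glutamine and other small neutral amino acids, ASCT1 (*Slc1a4*) exchanges alanine, serine and cysteine, and LAT4 (*Slc43a2*) lets leucine and its kin leave or enter without a partner. In brain, LAT1 is known from the endothelium of the blood-brain barrier, and SNAT3, Asc-1 and xCT from astrocytes among other cells. The level of each gene is given in CPM, its UMIs per 1000000 UMIs of a class and library, and levels are compared across classes within a gene, never between genes.

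*Slc3a2*, the heavy chain gene, lies on the minus strand of chromosome 19 (chr19:8706882-8723369, GRCm38) and spans 16.5 kb. It was found in every named class, at its highest in endothelial-like nuclei, with 256 CPM (interval 178 to 356) in the vehicle library and 389 (302 to 494) in the OLE library. Mural-like nuclei (215 and 67.7) held 8 and 4 UMIs. Among the larger classes of the vehicle library, microglia-like (90.6, 71.9 to 113), vascular leptomeningeal-like (89.8, 68.2 to 116), astrocyte-like (75.7, 57.5 to 97.9) and GABAergic-like nuclei (70.9, 64.8 to 77.4) had overlapping intervals, and glutamatergic-like (47.1, 45.1 to 49.1), oligodendrocyte-like (41.0, 32.9 to 50.4) and OPC-like nuclei (35.1, 23.1 to 51.0) lay below them.

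In the OLE library *Slc3a2* stood higher than in the vehicle library in each of the 6 classes that held at least 100 of its UMIs. In microglia-like nuclei it had 80 UMIs in the vehicle library and 126 in the OLE library, which is 90.6 and 173 CPM and a log2 ratio (OLE over vehicle) of 0.94 (interval 0.52 to 1.36), or 1.91-fold. In astrocyte-like nuclei the counts were 58 and 123, or 75.7 and 141 CPM, and the log2 ratio was 0.89 (0.43 to 1.37). Both values lay high among all genes with at least 100 UMIs in those classes: 99.8% of 3701 genes in microglia-like nuclei and 99.5% of 2991 in astrocyte-like nuclei had a smaller log2 ratio. The intervals of the levels in the libraries did not overlap in either class. Oligodendrocyte-like nuclei (89 and 110 UMIs, log2 ratio 0.60, 0.18 to 1.02) and vascular leptomeningeal-like nuclei (58 and 91 UMIs, 0.61, 0.12 to 1.11) gave smaller values. The classes with most UMIs gave the smallest ratios, 0.37 (0.29 to 0.45) in glutamatergic-like nuclei from 2172 and 2553 UMIs and 0.42 (0.25 to 0.59) in GABAergic-like nuclei from 494 and 620 UMIs. All 13 glutamatergic-like clusters and both GABAergic-like clusters had a higher level after OLE, from 40.7 to 56.2 CPM in the glutamatergic-like clusters of the vehicle library and from 52.0 to 81.9 in those of the OLE library, though clusters of 1 library are not replicates. OPC-like nuclei, with 27 and 30 UMIs, were below the minimum for comparison.

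**Figure D1:**
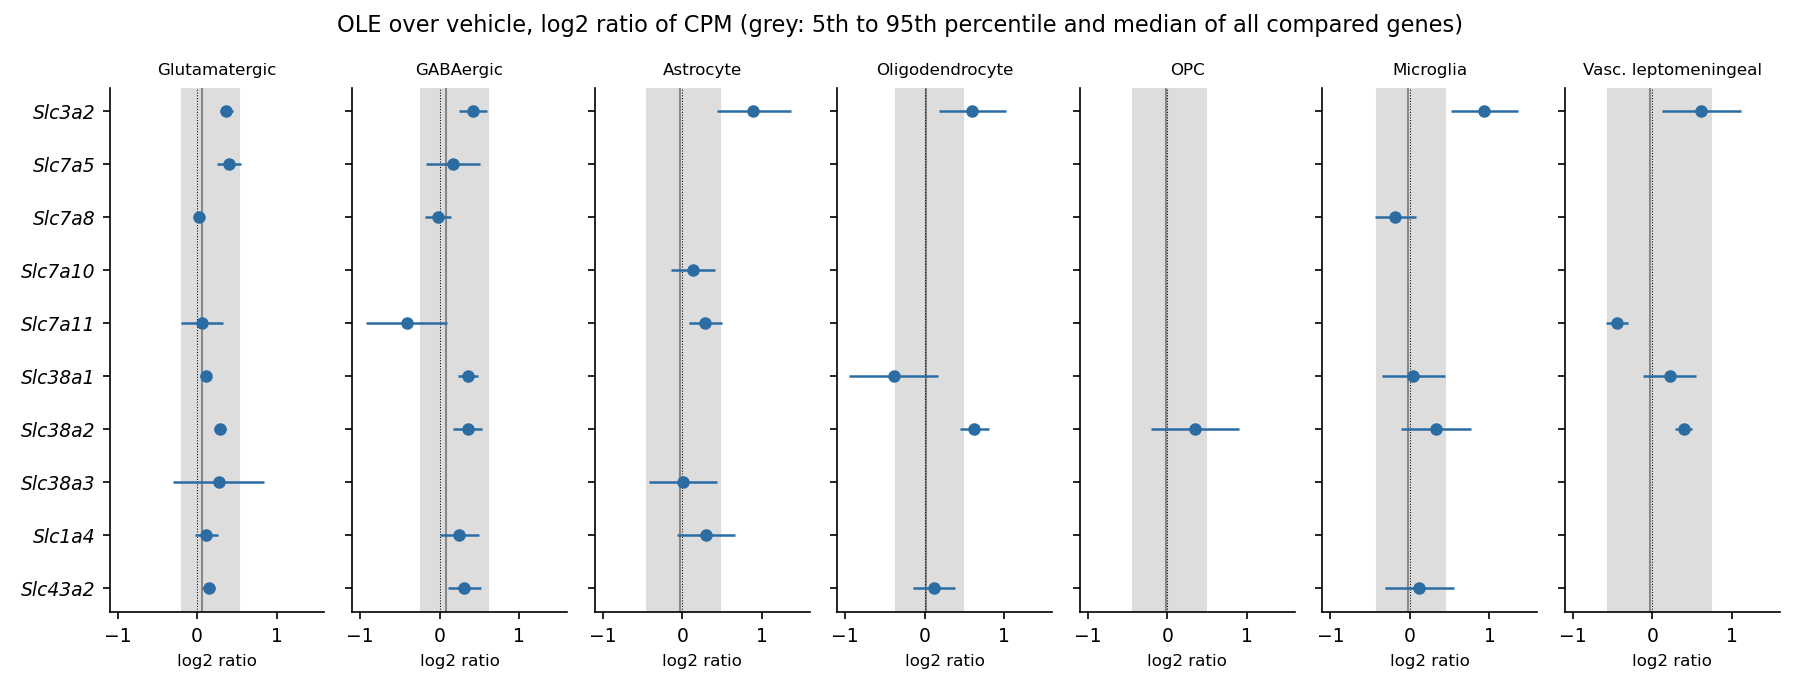
Log2 ratio (OLE over vehicle) of CPM for each transporter, on the horizontal axis, in the 7 classes compared; points are values from 1 library per condition with 95% counting intervals, the grey band holds the 5th to 95th percentile of all genes with at least 100 UMIs in that class and the grey line is their median. The points for Slc3a2 sit right of the band in astrocyte-like, oligodendrocyte-like and microglia-like nuclei, and Slc38a2 does so in oligodendrocyte-like nuclei, while Slc7a11 in GABAergic-like and Slc38a1 in oligodendrocyte-like nuclei sit left of it.

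A gene was counted as past the fold at a log2 ratio of at least 0.5, or at most -0.5, provided that the class held 100 of its UMIs when the libraries were added up. In microglia-like nuclei 1 of the 5 transporters compared, *Slc3a2*, was past the fold upward, beside 3.51% of all genes. The same gene was the 1 of 5 in astrocyte-like nuclei (4.38% of all genes) and the 1 of 4 in vascular leptomeningeal-like nuclei (10.5%), where among nuclei with few neuronal UMIs its log2 ratio was 0.27. In oligodendrocyte-like nuclei *Slc3a2* and *Slc38a2* made 2 of 4 (4.56%). Taken per nucleus instead of per UMI their log2 ratios there were 0.45 and 0.48, so neither was past the fold, while *Slc38a1*, at -0.53, was past it downward. None of 9 in glutamatergic-like nuclei (5.87%), none of 8 in GABAergic-like nuclei (8.13%) and not the 1 compared in OPC-like nuclei (4.72%) was past the fold upward. Downward no transporter was past it in any of these 7 classes, where the shares of all genes were 0.45% (glutamatergic-like), 0.548% (GABAergic-like), 3.68% (astrocyte-like), 1.75% (oligodendrocyte-like), 3.25% (OPC-like), 2.43% (microglia-like) and 6.82% (vascular leptomeningeal-like). *Slc7a11* in GABAergic-like nuclei was past it downward per nucleus (-0.65), without doublet removal (-0.61) and with the median of all genes set to 0 (-0.50). Of the 36 pairs of transporter and class compared, 31 had a log2 ratio above 0, beside 58.9% of all pairs of gene and class, and 27 when taken per nucleus, beside 40.2%. The median log2 ratio of the transporters was above that of all genes in each class with several of them compared: 0.14 against 0.07 in glutamatergic-like nuclei, 0.28 against 0.08 in GABAergic-like nuclei, 0.29 against -0.02 in astrocyte-like nuclei, 0.36 against 0.02 in oligodendrocyte-like nuclei, 0.12 against -0.02 in microglia-like nuclei and 0.31 against -0.04 in vascular leptomeningeal-like nuclei. The oligodendrocyte-like median rested on 4 genes and was -0.089 with a minimum of 20 UMIs.

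Messages for membrane and secreted proteins, that of the heavy chain among them, are translated on ribosomes bound to the endoplasmic reticulum (ER). From a list of 40 widely expressed genes of this kind, 23 had at least 100 UMIs in microglia-like nuclei, with a median log2 ratio of 0.23, and the whole list summed to 4657 CPM there in the vehicle library and 5724 in the OLE library. The list's median was larger in vascular leptomeningeal-like (0.66), GABAergic-like (0.52), OPC-like (0.46), glutamatergic-like (0.43), oligodendrocyte-like (0.38) and astrocyte-like nuclei (0.32). *Slc3a2* exceeded all 23 of these genes in microglia-like nuclei and all but 2 of 18 in astrocyte-like nuclei. It was exceeded by 25 of 39 in glutamatergic-like, 22 of 35 in GABAergic-like and 14 of 23 in vascular leptomeningeal-like nuclei, and by 6 of 28 in oligodendrocyte-like nuclei. A list of 39 widely expressed genes translated in the cytosol also had medians above those of all genes in 6 of the 7 classes: 0.18 in microglia-like, 0.23 in both glutamatergic-like and oligodendrocyte-like, 0.38 in GABAergic-like, 0.44 in vascular leptomeningeal-like and 0.08 in astrocyte-like nuclei, with -0.04 in OPC-like nuclei. A positive median was thus not confined to the genes translated at the ER. The part of either group's difference in that of *Slc3a2* was not tested.

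**Figure D2:**
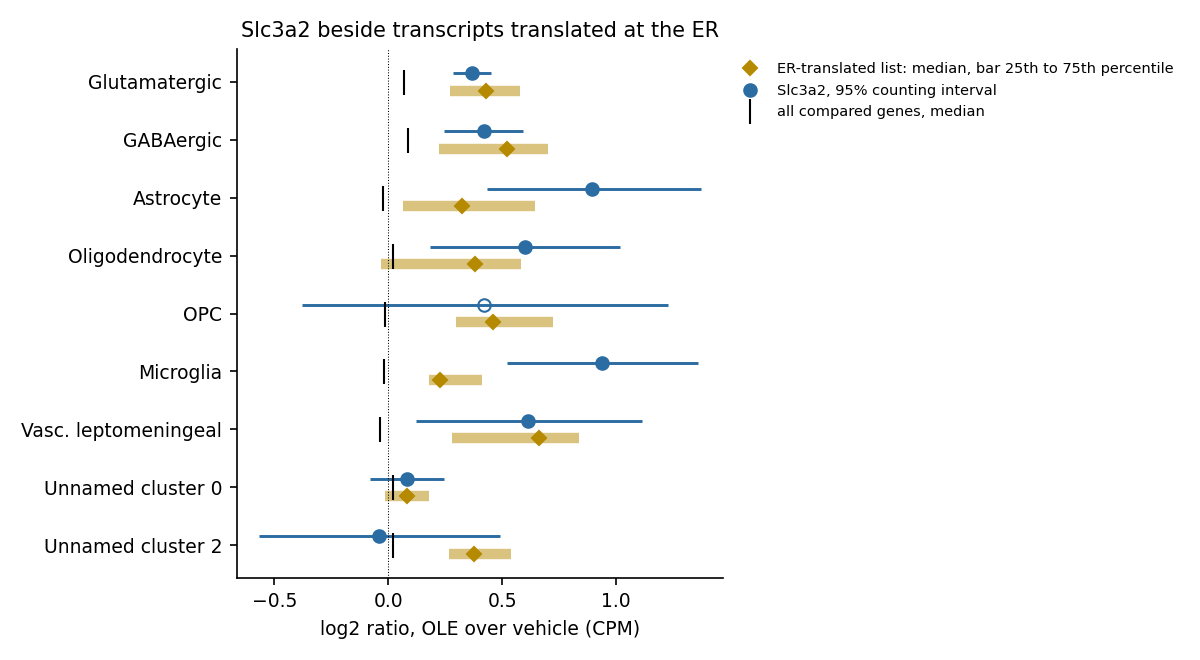
Log2 ratio (OLE over vehicle, horizontal axis) of Slc3a2 with its 95% counting interval (circles, open where it had under 100 UMIs), beside the median and the 25th to 75th percentile of the compared genes translated at the ER (diamonds and bars) and the median of all compared genes (ticks), by class. Slc3a2 lies above the bar in astrocyte-like and microglia-like nuclei, just above it in oligodendrocyte-like nuclei, and inside it in both neuronal classes.

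Transcripts of genes listed for other cell types were present in the glial classes, though whether they came from such cells was not tested. The 28 genes of a neuronal list, all with UMIs and led by *Ptprd*, summed to 25742 CPM in microglia-like nuclei of the vehicle library and 24720 of the OLE library, against 93382 and 90532 in glutamatergic-like nuclei. In astrocyte-like nuclei, where *Celf2* led, the sums were 14146 and 12538. As a share of the glutamatergic-like profile this was 27.6% and 27.3% for microglia and 15.1% and 13.8% for astrocytes. Such a share of the glutamatergic-like level of *Slc3a2* amounts to 12.98 of its 90.6 CPM in vehicle microglia-like nuclei and 7.13 of its 75.7 CPM in vehicle astrocyte-like nuclei. With that profile subtracted *Slc3a2* had a log2 ratio of 1.01 in the former class and 0.93 in the latter. Such a share can be too large: for *Slc7a8* in OPC-like nuclei of the vehicle library it came to 29.0 CPM, above the 20.8 found. In microglia-like nuclei 6 nuclear RNAs had a median log2 ratio of 0.29, against -0.02 for all genes. *Meg3* and *Snhg11*, with higher levels in both neuronal classes, were at 0.38 (0.28 to 0.47) and 0.47 (0.35 to 0.59) there. *Malat1* was at 0.08 (0.05 to 0.11) and *Neat1* at -0.04 (-0.38 to 0.30). The 12 astrocyte markers (all with UMIs, led by *Slc1a2*) summed to 959 and 971 CPM in microglia-like nuclei, and the 12 microglial markers to 149 and 161 in astrocyte-like nuclei, with *Tmem119* at 0 in the OLE library. Endothelial markers, given because *Slc3a2* was highest in endothelial-like nuclei, summed to 151 and 140 CPM in microglia-like nuclei (10 of 10 with UMIs, led by *Flt1*) and to 23.5 and 18.3 in astrocyte-like nuclei, with *Ly6c1* at 0 there in both libraries. In oligodendrocyte-like nuclei the neuronal list amounted to 25.2% and 23.5% of the glutamatergic-like profile. In vascular leptomeningeal-like nuclei it moved more, from 13489.5 CPM in the vehicle library to 10153 in the OLE library, all 28 genes with UMIs and led by *Celf2*, with a median log2 ratio of -0.40 and 7 of 18 genes compared past the lower fold. The astrocyte markers there summed to 5665 and 4869 CPM, mitochondrial transcripts to 74629 and 67587, and *Malat1*, a nuclear RNA, had a log2 ratio of 0.26 (0.23 to 0.28). The part of these transcripts in the ratios of *Slc3a2* and of the other transporters was not tested.

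*Slc7a5* (LAT1, chr8:121881150-121907694, minus strand) was highest in endothelial-like nuclei, at 432 CPM (329 to 557) in the vehicle library and 528 (425 to 649) in the OLE library. Its next level in the vehicle library, 21.2 (18.0 to 25.0) in GABAergic-like nuclei, was separated from these by the intervals. Endothelial-like nuclei had the highest listed level of both the heavy chain and LAT1, though for the heavy chain the interval overlapped that of mural-like nuclei in the vehicle library. These levels rested on 59 and 91 UMIs from 15 and 35 nuclei. Genes listed for other cells had UMIs in the class too, in amounts that differed between the libraries. Its neuronal list summed to 32316 CPM in the vehicle library and 18710 in the OLE library. The 8 mural markers, all with UMIs and led by *Rgs5*, summed to 4363 and 4193, beside 11363 and 12258 for its own 10 endothelial markers. The part of other cells in these levels was not tested. Among the classes compared, neurons alone reached 100 UMIs of this gene. Glutamatergic-like nuclei had 641 and 771 UMIs, or 13.9 and 18.4 CPM, a log2 ratio of 0.40 (0.25 to 0.56) with the level higher in 12 of 13 clusters, while in GABAergic-like nuclei 148 and 156 UMIs gave 0.17 (-0.17 to 0.50). Microglia-like nuclei, with 14 and 16 UMIs of *Slc7a5*, and astrocyte-like nuclei, with 9 and 15, were below the minimum for comparison, so LAT1 could not be set beside the heavy chain where the latter differed most.

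*Slc7a8* (LAT2, chr14:54722209-54781946, minus strand) was highest in microglia-like nuclei, at 339 CPM (301 to 379) in the vehicle library and 299 (260 to 341) in the OLE library. GABAergic-like (89.3, 82.4 to 96.6) and glutamatergic-like nuclei (84.5, 81.9 to 87.2) followed in the vehicle library and their intervals overlapped. Oligodendrocyte-like nuclei had 20.7 CPM, where the share of the glutamatergic-like profile alone amounts to 21.3. In microglia-like nuclei the heavy chain and LAT2 had ratios of opposite sign: *Slc7a8* had 299 UMIs in the vehicle library and 217 in the OLE library, a log2 ratio of -0.18 (-0.44 to 0.08), where that of *Slc3a2* was 0.94. In glutamatergic-like nuclei, where *Slc7a8* had 3897 and 3609 UMIs, the log2 ratio was 0.02 (-0.04 to 0.09), and in GABAergic-like nuclei, with 622 and 576 UMIs, -0.02 (-0.19 to 0.15). Taken per nucleus instead of per UMI the neuronal ratios were -0.07 and -0.25.

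*Slc7a10* (Asc-1, chr7:35186385-35201114, plus strand) was highest in astrocyte-like nuclei, with 258 CPM (224 to 297) in the vehicle library and 284 (249.5 to 321) in the OLE library. OPC-like nuclei came next with 24.7 (14.9 to 38.5) and 29.7 (17.9 to 46.4), and both neuronal classes had under 1 CPM in each library. The log2 ratio in astrocyte-like nuclei, from 198 and 248 UMIs, was 0.13 (-0.14 to 0.41). No other named class had 100 UMIs of it, and without doublet removal the sign turned (-0.13).

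*Slc7a11* (xCT, chr3:49892526-50443614, minus strand) was highest in vascular leptomeningeal-like nuclei, with 1503 CPM (1410.2 to 1601) in the vehicle library and 1100.3 (1022 to 1183) in the OLE library, and next in astrocyte-like nuclei, with 424 (379 to 473) and 519 (473 to 569). The remaining classes of the vehicle library lay between 0 and 31.2. The ratios of the leptomeningeal and astrocytic classes had opposite signs. In vascular leptomeningeal-like nuclei 971 and 729 UMIs gave a log2 ratio of -0.45 (-0.59 to -0.31), with 9.003% of the genes compared there lower still, and in astrocyte-like nuclei 325 and 454 UMIs gave 0.29 (0.08 to 0.50), above 87.4% of the genes compared in that class. Over the settings and splits tried, the astrocytic value ranged from 0.065 to 0.62 and the leptomeningeal one from -1.77 to -0.27. Whether the classes differ in the sign of this ratio beyond the spread between animals cannot be tested with 1 library per condition. Glutamatergic-like nuclei (247 and 234 UMIs, 0.06, -0.21 to 0.32) and GABAergic-like nuclei (81 and 57 UMIs, -0.42, -0.93 to 0.09) had low levels of *Slc7a11*. In GABAergic-like cluster 13 the log2 ratio was -1.32 (37 and 14 UMIs, -2.32 to -0.40), and in cluster 6 it was 0.06 (44 and 43 UMIs, -0.58 to 0.70), with intervals that overlapped. The gene spans 551 kb and 5 other annotated genes overlap it, 2 of them on the same strand. *Slc7a5*, *Slc7a10* and *Slc43a2* are overlapped on the opposite strand by *Gm20388*, *Lrp3* and *Gm45606*.

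**Figure D3:**
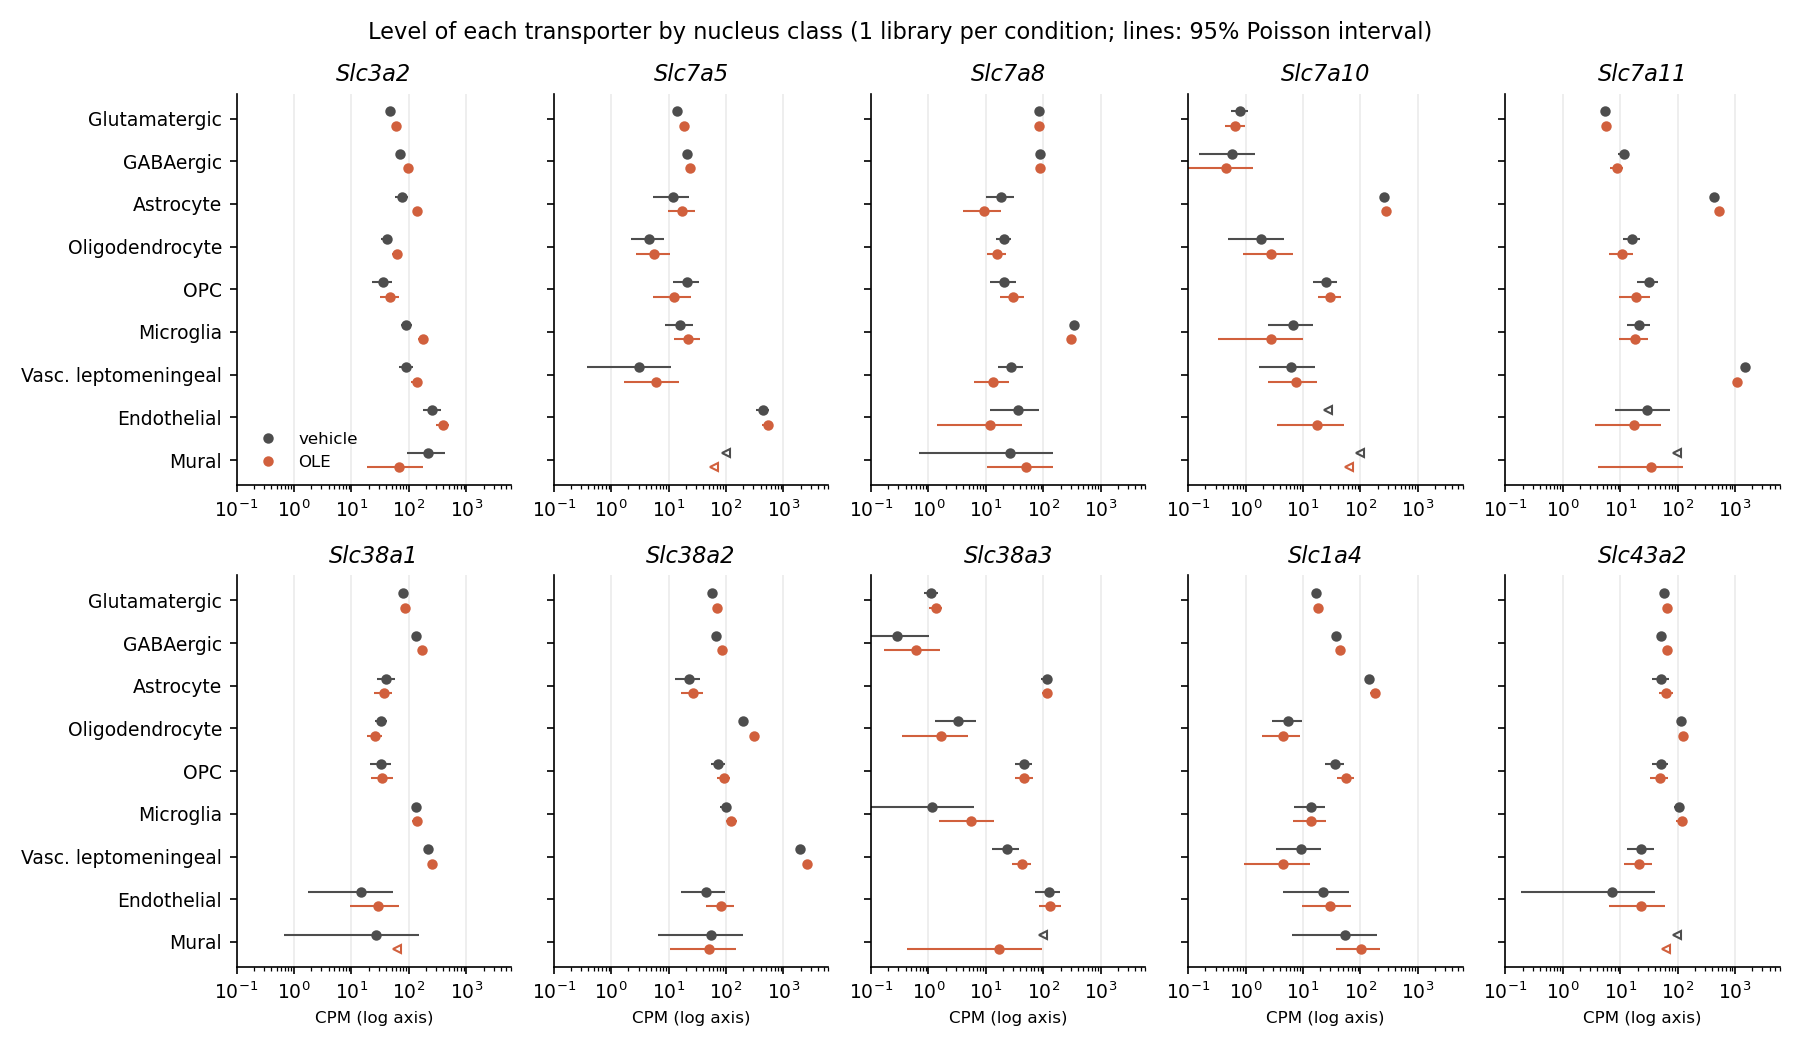
Level of each transporter in CPM (log axis) in the 9 named classes, in the vehicle library (grey) and the OLE library (orange), 1 library each; lines are 95% Poisson intervals and open triangles mark the upper limit where no UMI was found. Slc7a5 peaks in endothelial-like, Slc7a8 in microglia-like, Slc7a10 in astrocyte-like, and Slc7a11 and Slc38a2 in vascular leptomeningeal-like nuclei, in both libraries.

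*Slc38a2* (SNAT2, chr15:96687392-96699730, minus strand), whose transcript is known to be induced when cells lack amino acids, was highest in vascular leptomeningeal-like nuclei, with 1952 CPM (1846 to 2063) in the vehicle library and 2567 (2447 to 2692) in the OLE library. Oligodendrocyte-like nuclei followed with 199.7 (181 to 219) and 307 (282 to 334), then microglia-like nuclei with 98.5 (78.9 to 122) and 124 (99.6 to 152). In oligodendrocyte-like nuclei the 434 and 545 UMIs gave a log2 ratio of 0.62 (0.44 to 0.81), or 1.54-fold, which 97.5% of 5830 genes did not reach. The ratio was also above 0 in the other 5 classes compared: 0.40 (0.29 to 0.50) in vascular leptomeningeal-like nuclei from 1261 and 1701 UMIs, 0.28 (0.21 to 0.36) in glutamatergic-like nuclei from 2635 and 2921, 0.35 (0.17 to 0.53) in GABAergic-like nuclei from 462 and 553, and 0.33 (-0.11 to 0.77) in microglia-like nuclei from 87 and 90. Astrocyte-like nuclei had 17 and 23 UMIs of *Slc38a2*, among the lowest levels of the gene, and OPC-like nuclei 56 and 59 (0.34, -0.21 to 0.90), where the value turned to -0.25 among nuclei with few neuronal UMIs.

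*Slc38a1* (SNAT1, chr15:96571418-96642913, minus strand), which lies beside *Slc38a2* on chromosome 15, was highest in vascular leptomeningeal-like nuclei too (217, 182 to 256, and 252, 215 to 293) and differed from it elsewhere. Microglia-like (135, 112 to 161) and GABAergic-like nuclei (131, 123 to 140) of the vehicle library had overlapping intervals below that, then came glutamatergic-like nuclei (80.5, 77.9 to 83.1), and oligodendrocyte-like nuclei were among the lowest (33.1, 25.9 to 41.7). In oligodendrocyte-like nuclei these neighbouring genes also differed in the direction of the ratio, since *Slc38a1*, with 72 and 45 UMIs, had a log2 ratio of -0.39 (-0.96 to 0.17). The share of the glutamatergic-like profile amounts to 20.3 of its 33.1 CPM there in the vehicle library and 20.4 of 25.4 in the OLE library. With it subtracted the value was -1.39, given without an interval and resting on few UMIs. Its log2 ratio was 0.35 (0.22 to 0.48) in GABAergic-like nuclei from 912 and 1093 UMIs and 0.11 (0.04 to 0.17) in glutamatergic-like nuclei from 3713 and 3643. The lowest values of these neuronal ratios over the settings tried were 0.12 and 0.009. The intervals included 0 in microglia-like nuclei (119 and 101 UMIs, 0.04, -0.35 to 0.44) and in vascular leptomeningeal-like nuclei (140 and 167 UMIs, 0.22, -0.11 to 0.55).

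*Slc38a3* (SNAT3, chr9:107650634-107669530, minus strand) had overlapping intervals in endothelial-like (124, 72.5 to 199, and 134, 84.7 to 200.4) and astrocyte-like nuclei (115, 92.1 to 142, and 116, 94.1 to 140.4), and OPC-like nuclei followed with 46.8 and 47.0. Between the libraries it gave a log2 ratio of 0.01 (-0.42 to 0.44) in astrocyte-like nuclei, from 88 and 101 UMIs. Glutamatergic-like nuclei had 1.11 and 1.33 CPM, and 1 of their 13 clusters held most of these UMIs. That cluster of 141 nuclei, led by *Hmga2*, *Sntb1* and *Slc17a8*, had 29 UMIs in the vehicle library and 37 in the OLE library, or 22.6 and 27.9 CPM.

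*Slc1a4* (ASCT1, chr11:20302180-20332713, minus strand) was highest in astrocyte-like nuclei, with 144 CPM (118 to 173) and 176 (149.5 to 206), and its log2 ratio there was 0.30 (-0.07 to 0.66) from 110 and 154 UMIs. Mural-like nuclei came next in both libraries (53.7 and 101.6 CPM, from 2 and 6 UMIs), with intervals that overlapped those of astrocyte-like nuclei. GABAergic-like nuclei (37.3, 32.9 to 42.1) stood above glutamatergic-like nuclei (17.02, 15.9 to 18.3) in the vehicle library, and the ratios were 0.25 (0.00 to 0.50) and 0.11 (-0.03 to 0.26). Both ratios fell as far as 0.016 and 0.014 over the settings tried. *Slc43a2* (LAT4, chr11:75531694-75577575, plus strand) was highest in oligodendrocyte-like (115, 101 to 129.7) and microglia-like nuclei (108, 87.1 to 132), whose intervals overlapped, and glutamatergic-like (58.4), GABAergic-like (52.2), astrocyte-like (50.9) and OPC-like nuclei (50.7) followed, these 4 with overlapping intervals. Its log2 ratios were 0.31 (0.11 to 0.52) in GABAergic-like, 0.14 (0.07 to 0.22) in glutamatergic-like, 0.11 (-0.15 to 0.38) in oligodendrocyte-like and 0.12 (-0.32 to 0.56) in microglia-like nuclei. In the same order, their lowest values over the settings and splits tried were 0.079, 0.044, -0.031 and -0.15.

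The vascular leptomeningeal-like class held a pair of clusters between which the transporters were divided. Cluster 20, of 42 vehicle and 43 OLE nuclei and led by *Bnc2*, *Slc47a1* and *Adamtsl3*, carried *Slc38a2* at 2921 CPM in the vehicle library and 3583 in the OLE library and *Slc7a11* at 61.6 and 18.1. Cluster 21, of 43 and 39 nuclei and led by *Ranbp3l*, *Bmp6* and *Slc6a13*, carried *Slc7a11* at 3937 and 3267 and *Slc38a2* at 316 and 535. Each library showed the same division, and for both genes the intervals of the clusters did not overlap. The markers of the class averaged 0.52 of their highest level in cluster 20 and 0.75 in cluster 21, and *Cdh1* was also among the leading genes of cluster 20. The ratios of each of these transporters had the same sign in both clusters. *Slc38a2* had a log2 ratio of 0.29 (0.18 to 0.40) in cluster 20 and 0.76 (0.33 to 1.19) in cluster 21. *Slc7a11* had -1.77 (-3.13 to -0.57) from 25 and 8 UMIs in cluster 20. In cluster 21 it had -0.27 (-0.41 to -0.13) from 946 and 721 UMIs. *Slc3a2* stood at 133 and 231 CPM in cluster 21 and at 64.1 and 90.5 in cluster 20, with intervals that overlapped in the vehicle library. These clusters were made without the 10 transporters, though genes that vary with them were used.

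Microglia-like nuclei were divided again without the transporters. Subcluster 0 (158 vehicle and 117 OLE nuclei), led by *Atp6v0d2*, *Dkk2*, *Gpnmb* and *Igf1*, was disease-associated microglia-like by its markers, which averaged 0.92 of their highest level over subclusters beside 0.47 for the homeostatic markers. Subcluster 1 (126 and 108 nuclei) was homeostatic microglia-like. The smaller subcluster 2 (41 and 29 nuclei) met the naming rule for the same class, at 0.81 beside 0.24 for the disease-associated markers. Its leading genes, however, were *Hepacam*, *Prkcq* and mitochondrial transcripts such as *mt-Nd2*, so it is given by number only. *Slc7a8* stood lower in subcluster 0 (262 and 236 CPM) than in subcluster 1 (476 and 371), and *Slc43a2* did so too (80.0 and 72.1 against 154 and 156), and for both genes the intervals of these subclusters did not overlap in either library. Subcluster 2 did not share this in the vehicle library, where its levels, 234 CPM of *Slc7a8* and 63.7 of *Slc43a2*, had intervals that overlapped those of subcluster 0, and in the OLE library it had 467 and 175. For *Slc3a2*, with 114 and 200.01 CPM in subcluster 0 and 63.9 and 156 in subcluster 1, they overlapped. The difference between the libraries in *Slc3a2* was there in both: its log2 ratio was 0.81 (0.24 to 1.39) from 47 and 61 UMIs in subcluster 0 and 1.29 (0.51 to 2.10) from 22 and 42 UMIs in subcluster 1. Subcluster 2, led by *Hepacam*, *Prkcq* and *mt-Nd2*, had 22 and 32 UMIs of *Slc7a8* and a log2 ratio of 1.00 (0.17 to 1.85), opposite in sign to the class as a whole, and 7 and 12 UMIs of *Slc3a2* (1.24, -0.23 to 2.82).

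**Figure D4:**
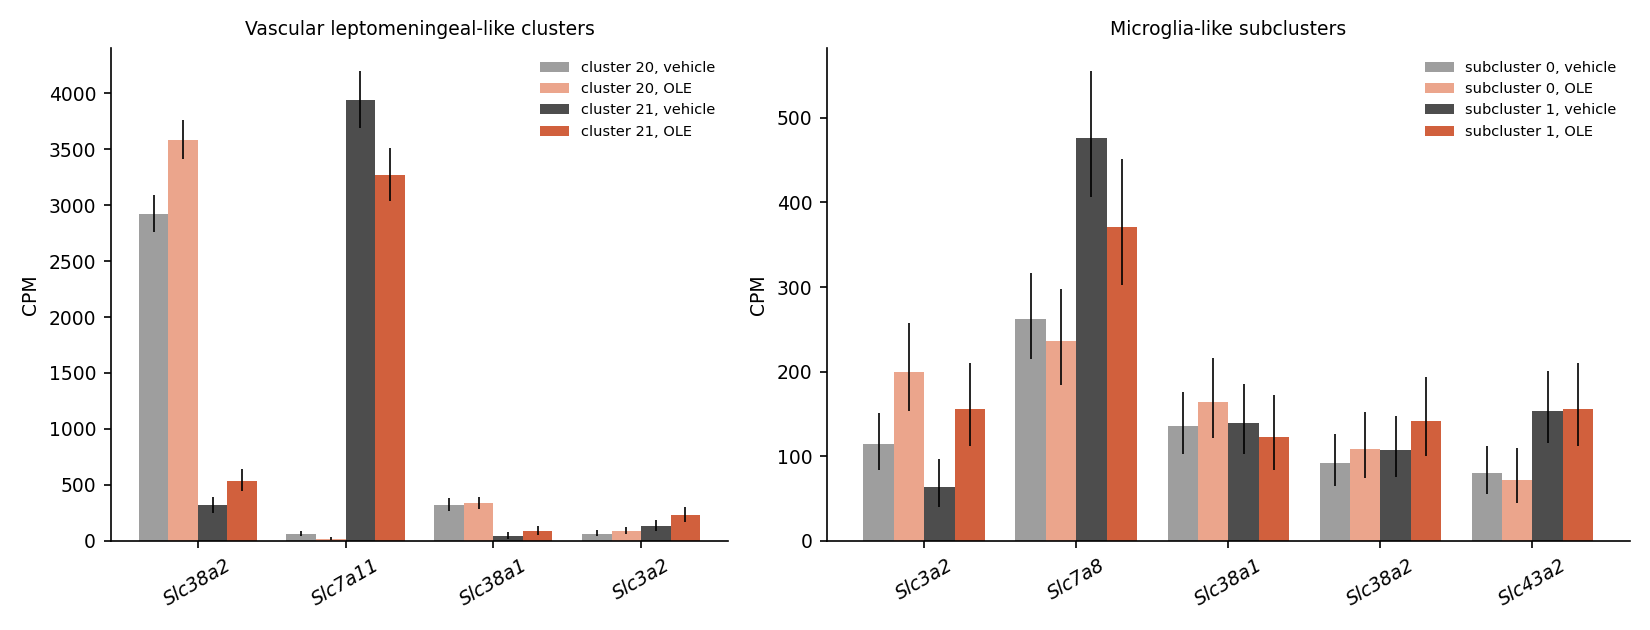
Levels in CPM (vertical axis) of selected transporters in the vascular leptomeningeal-like clusters 20 and 21 (left) and in microglia-like subclusters 0 and 1 (right), by library; bars start at 0 and lines are 95% Poisson intervals. Slc38a2 is higher in cluster 20 and Slc7a11 in cluster 21. Slc7a8 is higher in subcluster 1 than in subcluster 0, and Slc3a2 is higher in the OLE library in both subclusters.

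Taken per UMI, the ratio of *Slc3a2* was smaller in the unnamed clusters. Cluster 0, of 4438 nuclei with glutamatergic markers at a median of 3048 UMIs per nucleus, had 508 and 798 UMIs of it, 77.7 and 82.3 CPM, a log2 ratio of 0.08 (-0.08 to 0.25). In this cluster the genes translated at the ER had a median log2 ratio of 0.08 too. Cluster 2, of 814 nuclei led by *Hbb-bs*, *Rps12-ps3* and *Ftl1*, had a log2 ratio of -0.04 (-0.57 to 0.49) from 64 and 61 UMIs, where the ER genes had a median of 0.37 and 22 of 23 exceeded *Slc3a2*. Median UMIs per nucleus in cluster 0 were 2364.5 in the vehicle and 4738 in the OLE library. The upper end of the interval in cluster 0, 0.25, lay below the lower end in glutamatergic-like nuclei, 0.29. This order holds per UMI only: the 508 UMIs of cluster 0 came from 2448 vehicle nuclei and the 798 from 1990 OLE nuclei. Of the 10 transporters compared in cluster 0, *Slc7a10* (61 and 135 UMIs, 0.58, 0.13 to 1.04), was the 1 past the fold upward, beside 2.31% of all genes, and none downward (0.978%). In cluster 2 none of 4 was past it in either direction (11.4% of all genes upward, 4.86% downward).

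Log2 ratios in the whole data moved with the length of the gene, and the transporters differ widely in length. In each class compared except OPC-like, where the classes under 10 kb and of 10 to 30 kb had 0.13 alike, genes shorter than 10 kb had the highest median log2 ratio (0.17 in microglia-like, 0.20 in astrocyte-like, 0.21 in glutamatergic-like, 0.23 in oligodendrocyte-like, 0.68 in vascular leptomeningeal-like and 0.31 in GABAergic-like nuclei). Genes over 300 kb had the lowest in every class, from -0.03 in glutamatergic-like to -0.23 in vascular leptomeningeal-like nuclei. *Slc38a2* (12.3 kb), *Slc7a10* (14.7 kb), *Slc3a2* (16.5 kb), *Slc38a3* (18.9 kb) and *Slc7a5* (26.5 kb) belong to the genes of 10 to 30 kb, whose medians were 0.00 in microglia-like, 0.09 in astrocyte-like and glutamatergic-like, 0.10 in oligodendrocyte-like, 0.18 in vascular leptomeningeal-like and 0.16 in GABAergic-like nuclei. The ratios of *Slc3a2* exceeded these medians in each class where it was compared. Past the fold upward were, among genes of this length, 21.7% in vascular leptomeningeal-like and 11.7% in astrocyte-like nuclei. In oligodendrocyte-like and microglia-like nuclei these shares were 7.58% and 5.23%. In glutamatergic-like, GABAergic-like and OPC-like nuclei they were 4.42%, 8.79% and 15.7%. *Slc7a11*, the longest of the set, falls among genes over 300 kb, and its ratio in vascular leptomeningeal-like nuclei, -0.45, was below their median of -0.23. In cluster 21 alone, which held 946 and 721 of its UMIs, the ratio was -0.27 (-0.41 to -0.13), an interval that includes that median. The part of gene length in these ratios was not tested.

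**Figure D5:**
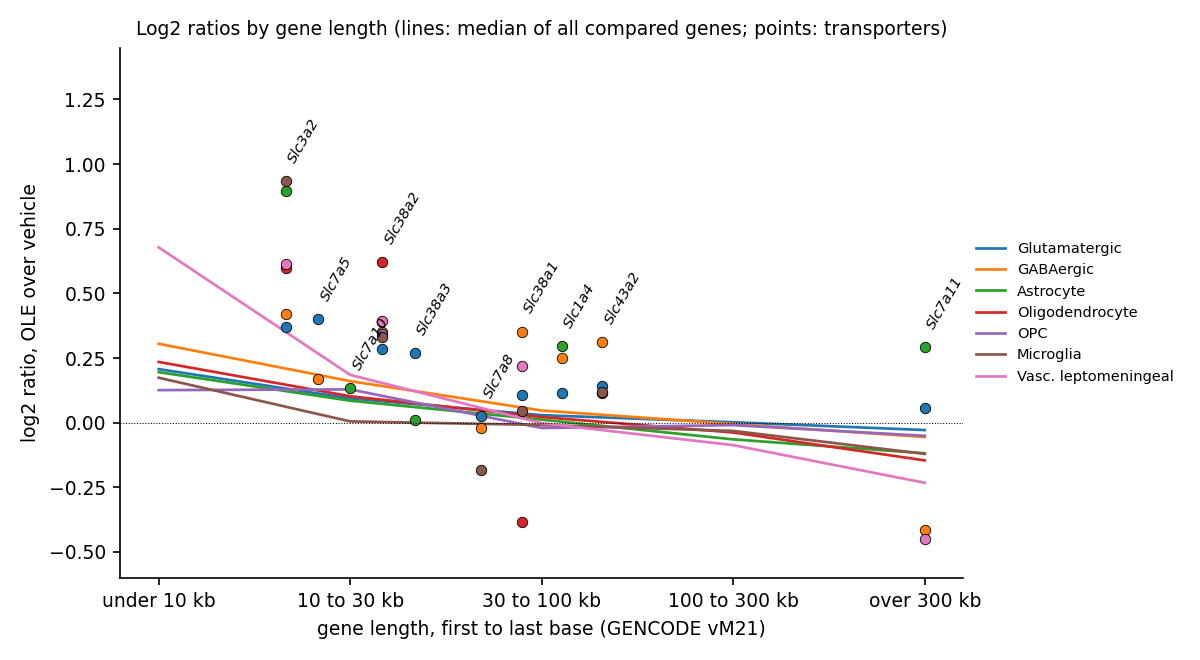
Median log2 ratio (OLE over vehicle, vertical axis) of all compared genes by gene length (lines, 1 per class) with the log2 ratio of each transporter in its length class (points, coloured by class and spread sideways within the length class so that genes can be told apart). Genes under 10 kb have medians above 0 in each class, and each point of Slc3a2 lies above the median of its class for genes of 10 to 30 kb.

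Genes around the transporters were described by lists, whose counts stand beside the shares of all genes past the fold upward: 5.87% in glutamatergic-like, 8.13% in GABAergic-like, 4.38% in astrocyte-like, 3.51% in microglia-like, 10.5% in vascular leptomeningeal-like, 4.72% in OPC-like and 4.56% in oligodendrocyte-like nuclei. Of 32 other amino acid transporters in the files, 1 of 22 compared in glutamatergic-like nuclei, a share near that of all genes, *Slc7a4* (897 and 1178 UMIs, log2 ratio 0.53), and 3 of 20 in GABAergic-like nuclei were past the fold upward, *Slc36a1* (0.72), *Slc7a4* (0.68) and the glial glutamate transporter *Slc1a3* (0.66). None of the 8 in microglia-like, 5 in astrocyte-like, 9 in oligodendrocyte-like and 4 in OPC-like nuclei was past it in either direction. *Slc7a7*, another light chain of 4F2hc, had 178 and 124 UMIs in microglia-like nuclei and a log2 ratio of -0.24 (-0.58 to 0.10), so that neither light chain gene compared there, *Slc7a7* or *Slc7a8*, was higher in the OLE library. *Slc7a6*, a further light chain, was at -0.01 (-0.08 to 0.07) in glutamatergic-like nuclei from 2895 and 2626 UMIs, at 0.02 (-0.18 to 0.21) in GABAergic-like nuclei and at 0.35 (-0.14 to 0.85) in oligodendrocyte-like nuclei from 69 and 72 UMIs. In vascular leptomeningeal-like nuclei *Slc1a3* (649 and 420 UMIs, -0.66, -0.85 to -0.49) was past the fold downward, and *Slc6a20a*, a proline carrier, stood at -0.39 (-0.53 to -0.24).

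Leucine inside the cell is sensed by sestrins and the Rag GTPases, which place the kinase complex mTORC1 on the lysosome. Of 35 genes of this pathway in the files, 34 were compared in glutamatergic-like nuclei with a median log2 ratio of 0.02, and 1 of them, *Rraga* (245 and 320 UMIs, 0.52), was past the fold (5.87% of all genes). *Rraga* was also the highest of 32 in GABAergic-like nuclei (39 and 71 UMIs, 0.96, 0.37 to 1.56), where *Mlst8* (0.85) and *Akt1s1* (0.68) followed and 4 in all were past the fold upward (8.13% of all genes). In microglia-like nuclei the median of 13 was -0.21, against -0.02 for all genes, with *Lars*, the leucyl-tRNA synthetase (93 and 50 UMIs, -0.61, -1.14 to -0.10), past the fold downward and *Eif4ebp2* (58 and 70 UMIs, 0.55, 0.03 to 1.08), a translation repressor under mTORC1, upward. *Fnip1*, a folliculin partner, was among the 3 lowest in GABAergic-like (-0.23), astrocyte-like (-0.26), oligodendrocyte-like (-0.36), OPC-like (-0.05) and microglia-like nuclei (-0.35). *Sesn3* was among the highest in astrocyte-like (136 and 219 UMIs, 0.50, 0.18 to 0.82) and OPC-like nuclei (71 and 101 UMIs, 0.78, 0.33 to 1.24) and among the lowest in GABAergic-like (870 and 700 UMIs, -0.22) and vascular leptomeningeal-like nuclei (-0.23). With *Sesn3* in astrocyte-like nuclei just short of it (0.497), single genes were also past the fold upward in astrocyte-like (*Lars2*, 0.52), oligodendrocyte-like (*Nprl3*, 0.57), OPC-like (*Sesn3*) and vascular leptomeningeal-like nuclei (*Rheb*, 0.56), and *Rps6kb1* (-0.53) was past it downward in the last of these.

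Enzymes that break down branched-chain amino acids showed medians from -0.17 in OPC-like to 0.15 in microglia-like nuclei. Of the 22 compared in glutamatergic-like nuclei, *Hsd17b10* (100 and 131 UMIs, 0.53) was past the fold upward. Of 18 genes of glutamine and serine metabolism, 13 were compared in oligodendrocyte-like nuclei. *Phgdh* (68 and 80 UMIs, 0.53), the first enzyme of serine synthesis, and *Got1* (0.52) were past it there (4.56% of all genes). In OPC-like nuclei *Gpt2* (0.51) was the 1 of 4 (4.72%). Of 5 in vascular leptomeningeal-like nuclei, *Glul*, glutamine synthetase, was at 0.71 (0.39 to 1.04) and *Srr*, serine racemase, at -0.80 (-1.36 to -0.25). The shares of all genes there were 10.5% upward and 6.82% downward. The amino acid response, in which the kinase GCN2 (*Eif2ak4*) raises ATF4 and its targets, gave medians of 0.06 for 22 genes in glutamatergic-like and 0.12 for 17 in GABAergic-like nuclei, against 0.07 and 0.08 for all genes. *Atf4* itself had 794 and 717 UMIs in glutamatergic-like nuclei and a log2 ratio of -0.01 (-0.16 to 0.14). Past the fold upward were *Ddit4* (0.71) and *Herpud1* (573 and 764 UMIs, 0.55) in glutamatergic-like and *Ddit3* (0.57) in GABAergic-like nuclei. So were *Phgdh* and *Gars* (0.51), of 12 compared in oligodendrocyte-like nuclei, and *Nupr1* (0.81), the 1 compared in vascular leptomeningeal-like nuclei. *Eif2ak4* (75 and 42 UMIs, -0.56, -1.14 to 0.01) was the 1 of 3 past it downward in microglia-like nuclei (2.43% of all genes).

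*Slc38a2*, *Slc7a11* and *Slc3a2* are known targets of ATF4, and *Slc7a11* also of NRF2, so the promoters were searched for the cores of the elements these factors are known to read. The table of RefSeq promoters (250 bases before to 50 after each start, GRCm38.p6) held entries for 7 of the 10 genes. TGATGNAA, the core of the amino acid response element read by ATF4, was on either strand in 3.97% of 32851 promoters and in those of *Slc7a11* and *Slc1a4*. TGACNNNGC, the core of the antioxidant response element read by NRF2, was on either strand in 12.4% and in that of *Slc38a2*. The windows of *Slc7a11* and *Slc38a2* are shown because these transporters divide the leptomeningeal clusters and their ratios differ in direction in that class. In glutamatergic-like nuclei both ratios were above 0 (0.06 and 0.28). Whether the words bear on levels or ratios was not tested. *Slc1a4* is shown as the remaining match. The word is in capitals and the strand of the gene is read 5′ to 3′.
Slc7a11, chr3:50443662-50443689, 66 bases before the start: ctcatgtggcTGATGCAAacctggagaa
Slc7a11, chr3:50443643-50443670, 47 bases before the start, word on the other strand: cctggagaatTTGCATCAtcatgcagcc
Slc1a4, chr11:20332700-20332727, 4 bases before the start, word on the other strand: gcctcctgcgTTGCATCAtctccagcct
Slc38a2, chr15:96699737-96699765, 27 bases before the start: ccccgcccacTGACGCGGCgccccgccgc
The *Slc7a11* promoter held the word on both strands, in windows that overlap. A match describes the sequence and is not a bound site, and neither word was in the entries of *Slc3a2*, *Slc7a8*, *Slc7a10* and *Slc43a2*, which says only that these letters are not in those windows.

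The genes whose levels ran most like each transporter were sought among 12080 genes over 14 points, the 7 classes in both libraries, which share their depth and class structure. Nearest to *Slc3a2* by Pearson's r of log2(CPM + 1) were *Pptc7* (0.94), *Vdac1* (0.92) and *Mrpl15* (0.91), nearest to *Slc7a11* were *Slc41a1* (0.99), *Slc7a2* (0.98) and *Ezr* (0.98), and nearest to *Slc7a10* were *Atp13a4* (0.97), *D130040H23Rik* (0.97) and *Mfge8* (0.97). *Slc38a2* ran with *Aff4* (0.97), *Nudt4* (0.95) and *Ehd1* (0.95), *Slc7a8* with *Plcl2* (0.97), *Rps6kc1* (0.96) and *Dgkz* (0.95), and *Slc43a2* with *Sh3kbp1* (0.96), *Atp8a1* (0.95) and *Ank* (0.95). *Slc38a3* had *Trib2* (0.96), *Tpmt* (0.95) and *Nhsl1* (0.95), and *Slc1a4* had *Gm44257* (0.96), *Fam184b* (0.96) and *Ntm* (0.95). *Slc38a1* had *Ttc39b* (0.94) and *Cyth3* (0.94), and *Slc7a5* had *Glmn* (0.90), *Junos* (0.88) and *Med12l* (0.88). Within the set the closest pair was *Slc7a10* and *Slc38a3* (0.89), and the most opposed *Slc38a2* and *Slc1a4* (-0.77). The heavy chain correlated with the 4 light chains of the set at 0.10 (*Slc7a5*), 0.19 (*Slc7a8*), 0.15 (*Slc7a10*) and 0.47 (*Slc7a11*). Endothelial-like nuclei, where *Slc3a2* and *Slc7a5* both had their highest levels, were not among the points, so these values do not cover them.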

How the data were processed

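Nuclei of frozen cortex went into 10x 3′ v3 libraries, and the authors aligned reads to the mm10 pre-mRNA genome with Cell Ranger 3.0.1 and removed doublets in Seurat 4.0.4, at a step the sources do not place. The deposited values are whole-number UMI counts per gene and nucleus, introns included, not normalized. Here doublets were scored with Scrublet (Scanpy 1.11.5); its threshold called under 0.5% of each library, so the 5% of nuclei that scored highest were left out. Nuclei were clustered in Seurat 5.3.0 (SCTransform, 3000 variable genes less the members among them, 30 components, 20 neighbours, resolution 0.4). A cluster was named where the markers of a class averaged at least 0.4 of their highest level over clusters, at least 3 were in 10% of nuclei, no other class reached 0.5 of that average (0.6 for microglial subclusters) and the median UMIs reached 1/3 of those of the class. This naming rule was set after the clusters were seen. Counts were summed per class and library, and ratios were given from 100 UMIs. Levels carry exact Poisson and ratios exact binomial intervals. Named genes were the 10 members, at most the 3 highest and 3 lowest log2 ratios per list and class, and the 3 nearest profiles per member. A few genes that this rule names are not reported here. Calculations were checked on simulated counts. Members and lists were chosen with earlier results of these data known. Gene models are from GENCODE vM21. Python 3.11.15 and R 4.3.3 were used.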

Additional observations from a re-analysis of the deposited data

How the results depend on the processing

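Over the settings tried, planned and added, the log2 ratio of *Slc3a2* stayed above 0 in 60 of 60 values (microglial subclusters with under 20 UMIs of it did not enter, among them a macrophage-like one with 3 and 4 UMIs and a ratio of -0.34) and past the fold in 22 of 22 in microglia-like and astrocyte-like nuclei, with ranges of 0.77 to 1.29 and 0.65 to 0.94. These values are not independent, since the settings reuse the same nuclei. With the transporters kept in the clustering and at resolution 0.8, microglia-like nuclei gave 0.94 again. The unnamed clusters did not enter, and in cluster 2 the ratio of *Slc3a2* was -0.04. Of 346 values of single transporters, 24 left the counting interval of the reported value. In 21 the sign differed from that of the reported value, which was at most 0.344 in size in those cases. In oligodendrocyte-like nuclei the ratio of *Slc3a2* ranged from 0.45 to 0.97 and in vascular leptomeningeal-like nuclei from 0.27 to 0.80, and it was short of the fold per nucleus in the former and, in the latter, among nuclei with few neuronal UMIs (where *Slc7a11*, at -0.54, was the 1 of 4 past it downward, beside 10.5% of all genes) and in cluster 20 alone (0.498). Per nucleus, *Slc38a2* (0.48) was short of the fold in oligodendrocyte-like nuclei too, and the 1 of 4 past it there, *Slc38a1*, was so downward (-0.53), beside 5.32% of all genes. In GABAergic-like nuclei *Slc7a11* was the 1 of 8 past the fold, downward, per nucleus (-0.65, beside 3.7% of all genes), without doublet removal (-0.61, 0.589%) and with the median of all genes set to 0 (-0.50, 1.17%). Per nucleus, *Slc3a2* had ratios of 0.27 (glutamatergic-like) and 0.19 (GABAergic-like), and the medians of the transporters were 0.044 and 0.048. In astrocyte-like nuclei 2 of 8 were past the fold upward without doublet removal, *Slc3a2* and *Slc38a2* (0.69), beside 7.45% of all genes, and 2 of 5 among nuclei with few neuronal UMIs, *Slc3a2* and *Slc7a11* (0.62), beside 9.8%. Among such nuclei the single OPC-like value was -0.25. With the glutamatergic-like profile subtracted, 2 of 4 were past the fold in vascular leptomeningeal-like nuclei, *Slc3a2* upward and *Slc7a11* (-0.50) downward, beside 11.4% and 8.17% of all genes. A minimum of 20 UMIs put 3 of 10 past it in astrocyte-like nuclei (2 upward and 1 downward, beside 14.0% and 10.2% of all genes), 4 of 10 in OPC-like nuclei (2 and 2, beside 14.5% and 10.3%) and 3 of 7 in vascular leptomeningeal-like nuclei (2 and 1, beside 19.8% and 11.9%). It gave an oligodendrocyte-like median of -0.089, as did no minimum (-0.089), where more genes with few UMIs entered. The remaining causes were not tested. The class with the highest level of a transporter changed in 6 of 50 values, for *Slc3a2*, *Slc7a5* and *Slc38a3*, in settings without a named endothelial-like class. Splits within microglia-like and leptomeningeal-like nuclei were added after the data were seen. No paired analysis was possible because each condition has 1 library. With 1 library and 5 pooled mice per condition, treatment, pool and library cannot be told apart.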
